A study of Homo sapiens with 12 samples.

Results

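The annexins are proteins that bind phospholipid membranes when calcium is present, and 10 members of the family were followed across 4 groups of cultured human cells. The members were the 10 genes ANXA1, ANXA2, ANXA3, ANXA4, ANXA5, ANXA6, ANXA7, ANXA9, ANXA11 and ANXA13, found by gene symbol among 18417 genes that could be assigned 1 symbol each, with the brightest transcript cluster standing for a gene. ANXA10 was also measured, with group means of 4.62 to 4.78 in log2 signal, but was not among the members and is not counted below. The family was chosen by how ANXA7 and ANXA3 differed between the double knockdown and the control, so that contrast is given below as a description. Members past the threshold there are counted, but no p is given for them and nothing rests on the count.

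RNA was measured on 12 Affymetrix Human Gene 1.0 ST arrays, 3 in each group. All groups were HEK293T cells, a line of embryonic kidney origin, transfected for 78 h with plasmids that express short hairpin RNA (shRNA). The groups received shRNAs against both UBE4B and LSD1 (shUBE4B+shLSD1, the double knockdown), shRNAs against UBE4B (shUBE4B), shRNAs against LSD1 (shLSD1), or a nontargeting control (shCTRL). UBE4B encodes a ubiquitin ligase, and LSD1 is a histone demethylase encoded by KDM1A. The study describes these cells as also carrying a misfolding mutant of SOD1, which the labels do not mention. The arrays within each group are labelled as biological replicates, with no word on separate cultures, so the p-values below measure only the spread between these arrays, which may be technical. The design asks which annexin mRNAs differed with each shRNA set, and whether both sets together gave more than the sum of each alone.

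An annexin has a conserved core that holds the calcium and lipid binding sites and a variable N terminus that gives each member its own partners. Calcium brings the core onto membranes rich in acidic lipids such as phosphatidylserine. Members are known for membrane fusion and trafficking, for the resealing of torn plasma membranes, and for binding lipids that appear on the surface of dying cells. Several bind small EF-hand proteins of the S100 and penta-EF-hand families through the N terminus.

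Both target genes were lower in the groups meant to lack them. The log2 difference of KDM1A mRNA from the control was -1.12 in the double knockdown and -1.26 in shLSD1, and that of UBE4B mRNA -1.42 in the double knockdown and -1.40 in shUBE4B. The median log2 signal of an array lay between 7.00 and 7.06. Among the arrays, shCTRL replicate 2 had the lowest mean correlation with its own group (0.994), and its values differed from the mean of the other controls by -0.60 for ANXA1, -0.57 for ANXA4 and -0.55 for ANXA3. Differences of annexins from the control are therefore given with and without that array. Markers of HEK293T cells averaged 8.70 to 8.96 in the double knockdown, 8.73 to 8.87 in shUBE4B, 8.72 to 8.93 in shLSD1 and 8.76 to 8.99 in shCTRL (6 genes, log2 signal per array). The 6 colon markers averaged 6.54 to 6.77 over all arrays and overlapped between all groups. Single colon markers differed widely in level, with group means of 9.28 to 9.36 for CDX2 and 4.66 to 4.76 for CDH17. The 3 leukocyte markers averaged 5.57 to 5.65 in the double knockdown, 5.48 to 5.57 in shUBE4B, 5.52 to 5.69 in shLSD1 and 5.51 to 5.63 in shCTRL. The 5 fibroblast markers averaged 6.18 on every double knockdown array, 6.03 to 6.15 in shUBE4B, 6.07 to 6.18 in shLSD1 and 6.07 to 6.17 in shCTRL. The part of these small shifts in the results was not tested.

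ANXA7, the synexin that was first purified as a factor that makes chromaffin granules fuse, was the annexin with the largest positive difference between the double knockdown and the control. Its log2 signals were 9.34, 9.26 and 9.39 in the double knockdown, 8.99, 8.97 and 8.93 in shUBE4B, 8.48, 8.70 and 8.71 in shLSD1, and 8.66, 8.45 and 8.65 in shCTRL. All double knockdown arrays lay above all shUBE4B arrays, and all shUBE4B arrays above all shLSD1 and shCTRL arrays, while shLSD1 and shCTRL overlapped. The group means were 9.33 ± 0.07, 8.96 ± 0.03, 8.63 ± 0.13 and 8.59 ± 0.12 in the same order (SD, n = 3 each). ANXA7 in the double knockdown was 1.67-fold the control level (log2 difference 0.74, SE 0.08), a value used to choose the family. In these bulk samples, a difference in RNA per cell and a difference in the share of cells that express a gene cannot be told apart.

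The arrays of shUBE4B and shLSD1 took no part in that choice, but their test is not independent of it. The limma fit took the spread of each gene from all groups, including the double knockdown and control arrays behind the choice. The tests were also chosen with earlier results of these data known. ANXA7 also passed in limma on the arrays of shUBE4B and shLSD1 alone. ANXA7 was 1.26-fold higher in shUBE4B than in shLSD1 (log2 difference 0.33, 95% interval 0.16 to 0.50, limma adjusted p = 0.0293 over all genes). Among the 6 HEK293T markers, 4 had an unadjusted p under 0.05 in the same contrast, with NEFL at 0.37 (limma adjusted p = 0.0231) and NEFM at -0.41 (adjusted p = 0.101), and the part of such shifts in the ANXA7 difference was not tested. The ANXA7 call needed every array of both groups, since the limma adjusted p ran between 0.0537 and 0.125 when any 1 of those 6 arrays was left out (shUBE4B replicates 1, 2 and 3, shLSD1 replicates 1, 2 and 3), with log2 differences of 0.25 to 0.37. Against the control, the log2 difference of ANXA7 was 0.38 (SE 0.08) in shUBE4B and 0.05 (SE 0.08) in shLSD1. Without shCTRL replicate 2 these were 0.31 and -0.02, and that of the double knockdown was 0.67. The double knockdown exceeded the sum of both single differences by 0.32 (SE 0.11). This interaction did not pass the threshold (limma unadjusted p = 0.0143, adjusted p = 0.286).

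ANXA3, also called lipocortin III, was the annexin with the largest negative difference between the double knockdown and the control. Its log2 signals were 6.52, 6.45 and 7.01 in the double knockdown, 6.84, 6.74 and 7.05 in shUBE4B, 7.39, 7.22 and 7.41 in shLSD1, and 7.60, 6.94 and 7.38 in shCTRL. Replicate 3 stood highest of the double knockdown arrays and overlapped the lowest control, shCTRL replicate 2. The double knockdown averaged 6.66 ± 0.31, shUBE4B 6.87 ± 0.16, shLSD1 7.34 ± 0.10 and shCTRL 7.30 ± 0.34 (SD, n = 3 each). ANXA3 in the double knockdown was thus at 64.0% of the control level (log2 difference -0.64, SE 0.16), which again was a value behind the choice of the family. The difference was -0.83 without shCTRL replicate 2.

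Every shUBE4B array lay below every shLSD1 array for ANXA3. That log2 difference was -0.46 (95% interval -0.82 to -0.11). It did not pass the threshold in limma on all 12 arrays (unadjusted p = 0.0145, adjusted p = 0.129). It passed in 4 of 23 alternatives, among them limma on those 6 arrays alone (adjusted p = 0.0164) and with array weights (adjusted p = 0.0271). Another of the 4 was a test without adjustment. With each of the 12 arrays left out in turn the difference did not pass (limma adjusted p between 0.0544 and 0.318). Against the control the difference of ANXA3 was -0.43 in shUBE4B and 0.03 in shLSD1 (SE 0.16 each). Without shCTRL replicate 2 they were -0.61 and -0.15. The interaction was -0.25 (SE 0.23, limma adjusted p = 0.654). ANXA3 therefore ordered the groups in the reverse sense to ANXA7, with the double knockdown lowest, shUBE4B next and shLSD1 and shCTRL at the top, though the double knockdown and shUBE4B arrays overlapped, as did those of shLSD1 and shCTRL. Its spread between arrays was wider than that of ANXA7, with a pooled SD within groups of 0.25 against 0.10 on the log2 scale.

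ANXA5, the annexin whose binding to exposed phosphatidylserine is used to stain dying cells, had the next largest negative difference between the double knockdown and the control. Its log2 signals were 10.74, 10.63 and 10.88 in the double knockdown, 10.88, 10.93 and 10.90 in shUBE4B, 11.00, 11.08 and 11.05 in shLSD1, and 11.01, 10.99 and 11.24 in shCTRL. The double knockdown arrays were all below those of every other group, and the shUBE4B arrays were all below the shLSD1 and shCTRL arrays. The double knockdown stood at 79.3% of the control level (log2 difference -0.33, SE 0.08, and -0.38 without shCTRL replicate 2). Against shLSD1 the double knockdown differed by -0.30 (SE 0.08, limma adjusted p = 0.0675), against shUBE4B by -0.16 (adjusted p = 0.417), and shUBE4B differed from the control by -0.18 (adjusted p = 0.171, and -0.22 without shCTRL replicate 2). None of these 3 passed the threshold in the fit of all 12 arrays. The difference between the double knockdown and shLSD1 passed in 7 of 23 alternatives, 1 of them a test without adjustment and 2 of them limma without shCTRL replicate 2 (adjusted p = 0.0477) or without shCTRL replicate 3 (adjusted p = 0.0345).

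**Figure D1:**
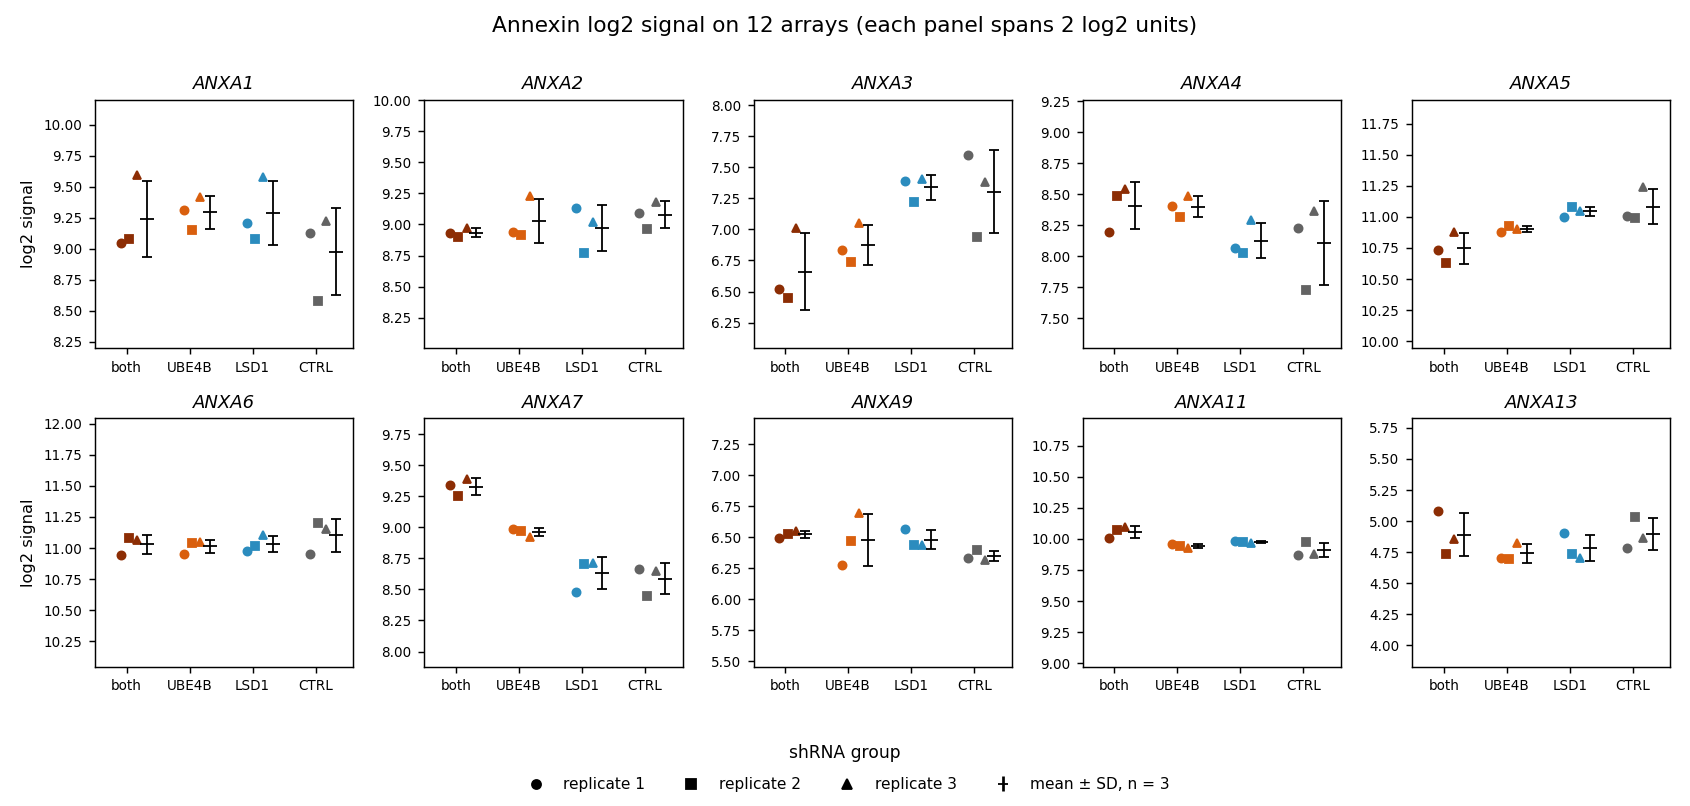
Log2 signal of the 10 annexins on each array (vertical axis, 2 log2 units in every panel) by shRNA group (both, UBE4B, LSD1, CTRL), with replicates 1, 2 and 3 as circles, squares and triangles and the mean ± SD beside them. ANXA7 is highest and ANXA3 and ANXA5 are lowest on average with both shRNAs, and shCTRL replicate 2 is the low square of ANXA1, ANXA3 and ANXA4.

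The start sites of these 3 genes are shown because they are the members with the largest differences between the double knockdown and the control. RefSeq windows (GRCh38.p14, 250 bases before to 50 after the start of transcription) were found for 9 of the 10 members. Capitals mark short motifs found on either strand.
ANXA7, chr10:73414009-73414308, minus strand: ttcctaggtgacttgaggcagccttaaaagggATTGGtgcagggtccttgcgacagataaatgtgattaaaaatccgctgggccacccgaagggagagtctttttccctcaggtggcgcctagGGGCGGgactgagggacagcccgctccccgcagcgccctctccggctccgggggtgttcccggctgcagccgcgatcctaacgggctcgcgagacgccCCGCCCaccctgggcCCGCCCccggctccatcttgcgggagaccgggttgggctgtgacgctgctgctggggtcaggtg
ANXA3, chr4:78551520-78551819, plus strand: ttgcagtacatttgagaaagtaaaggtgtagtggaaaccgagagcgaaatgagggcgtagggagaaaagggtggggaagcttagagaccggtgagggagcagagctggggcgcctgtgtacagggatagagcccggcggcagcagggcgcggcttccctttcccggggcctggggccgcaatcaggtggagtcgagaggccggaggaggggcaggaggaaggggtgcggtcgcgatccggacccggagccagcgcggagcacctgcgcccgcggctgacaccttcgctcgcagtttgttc
ANXA5, chr4:121696931-121697230, minus strand: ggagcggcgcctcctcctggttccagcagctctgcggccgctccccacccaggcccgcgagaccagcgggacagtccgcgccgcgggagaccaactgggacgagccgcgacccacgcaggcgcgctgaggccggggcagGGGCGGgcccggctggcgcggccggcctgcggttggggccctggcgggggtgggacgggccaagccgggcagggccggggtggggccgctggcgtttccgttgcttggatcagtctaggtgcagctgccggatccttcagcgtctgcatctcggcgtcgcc

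The ANXA7 window held 3 GC boxes (GGGCGG), which begin at -127, -29 and -14 from the start of transcription, and 1 CCAAT box (CCAAT) at -218. A GC box was in 45% of 35116 RefSeq windows of this length and a CCAAT box in 34.6%. The ANXA5 window held 1 GC box, at -111. No match to these motifs, to a TATA box (TATAAA, 11.5% of windows), an E-box (CACGTG, 7.26%), an AP-1 site (TGANTCA, 7.71%) or the p53 half-site consensus (6.63%) was found in the ANXA3 window. The ANXA7 and ANXA5 windows likewise held no TATA box, E-box, AP-1 site or p53 half-site match. Among the windows of the members, only that of ANXA1 held a p53 half-site match, at -136. The 3 windows shown held 23 CpG in ANXA7, 25 in ANXA3 and 36 in ANXA5, and CpG was not counted in the other windows. Both strands were searched, and the motifs marked did not overlap. A match describes the letters of a window and was not tested for binding or function.

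ANXA11, which like ANXA7 binds the penta-EF-hand proteins sorcin and ALG-2 and is known as a tether of RNA granules to lysosomes, had little spread. Its log2 signals were 10.01, 10.07 and 10.09 in the double knockdown, 9.96, 9.94 and 9.93 in shUBE4B, 9.98, 9.98 and 9.97 in shLSD1, and 9.87, 9.97 and 9.88 in shCTRL. The double knockdown arrays were above all others, by a log2 difference of 0.15 from the control (SE 0.06, and 0.18 without shCTRL replicate 2). Against shUBE4B and shLSD1 the double knockdown differed by 0.12 and 0.08, neither past the threshold in limma (adjusted p = 0.398 and 0.546).

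ANXA1, known for limiting inflammation through formyl peptide receptors, had a control group that was spread by 1 array. Its log2 signals were 9.05, 9.08 and 9.59 in the double knockdown, 9.31, 9.15 and 9.42 in shUBE4B, 9.21, 9.08 and 9.58 in shLSD1, and 9.13, 8.58 and 9.22 in shCTRL. All groups overlapped, and neither shUBE4B (log2 difference 0.32) nor shLSD1 (0.31) passed the threshold against the control in limma (adjusted p = 0.275 and 0.499). Without shCTRL replicate 2 these differences were 0.12 and 0.11, and that of the double knockdown was 0.07 in place of 0.27.

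ANXA4, an annexin of epithelial cells, showed the same dependence on that control. Its log2 signals were 8.19, 8.48 and 8.54 in the double knockdown, 8.40, 8.31 and 8.48 in shUBE4B, 8.07, 8.02 and 8.29 in shLSD1, and 8.23, 7.73 and 8.37 in shCTRL. The shUBE4B arrays all lay above the shLSD1 arrays, with a log2 difference of 0.27 that did not pass in limma (SE 0.14, adjusted p = 0.308). Against the control ANXA4 differed by 0.30 in the double knockdown and 0.29 in shUBE4B (limma adjusted p = 0.201), and without shCTRL replicate 2 by 0.11 and 0.10.

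ANXA2, which forms a heterotetramer with S100A10 that binds plasminogen at the cell surface, differed little. The arrays ran between 8.90 and 8.97 in the double knockdown, 8.92 and 9.23 in shUBE4B, 8.77 and 9.14 in shLSD1, and 8.96 and 9.18 in shCTRL, and all groups overlapped. Its log2 differences from the control were -0.14 in the double knockdown, -0.05 in shUBE4B and -0.10 in shLSD1 (SE 0.10 each). Without shCTRL replicate 2 they were -0.20, -0.11 and -0.16. The genome holds processed copies of ANXA2 whose sequence is close enough to share probes, so the ANXA2 level is uncertain. Of the 3 copies measured, ANXA2P1, ANXA2P2 and ANXA2P3, none passed in any of the 7 contrasts, beside 0% to 10.1% of all genes. Their differences from the control in the double knockdown were -0.29 to -0.11.

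ANXA6, whose core is enlarged relative to the other members, had overlapping arrays in all groups. Its arrays ran between 10.94 and 11.08 in the double knockdown, 10.95 and 11.04 in shUBE4B, 10.98 and 11.10 in shLSD1, and 10.95 and 11.20 in shCTRL. The log2 differences from the control were -0.07, -0.09 and -0.07 in the double knockdown, shUBE4B and shLSD1 (SE 0.07 each), with limma adjusted p of 0.461 in shUBE4B and 0.759 in shLSD1. Without shCTRL replicate 2 they were -0.02, -0.04 and -0.02.

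Low signals limit the remaining members. Olfactory receptor genes, which are expected to be silent in kidney cells, served as a yardstick, with a median log2 signal of 4.79 and a 95th percentile of 6.28 over 361 genes. ANXA13, an annexin of intestinal and kidney epithelium, averaged 4.83 over all arrays, above 52.1% of those genes, and its largest difference from the control was -0.16 in shUBE4B (limma adjusted p = 0.305, and -0.09 without shCTRL replicate 2). ANXA9, whose calcium binding sites are altered, averaged 6.46, above 96.4% of them. The ANXA9 arrays of the double knockdown (6.49 to 6.55) and of shLSD1 (6.44 to 6.57) were all above those of shCTRL (6.32 to 6.40), with log2 differences of 0.17 and 0.13 (SE 0.09 each, limma adjusted p = 0.566 in shLSD1), or 0.20 and 0.16 without shCTRL replicate 2. ANXA3 averaged 7.04, above 98.9% of the olfactory genes, and each of the other 7 members was above all of them.

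Counted over the family, ANXA7 was the 1 member higher and ANXA3 and ANXA5 the 2 members lower in the double knockdown against the control, where 7.56% of all genes passed the threshold. These counts describe the contrast by which the family was chosen. The median log2 difference of the 10 members was 0.07, and that of all genes -0.01. Without double knockdown replicate 1, double knockdown replicate 2 or shCTRL replicate 3, the count was 1 member, ANXA7.

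With shUBE4B alone, 1 of 10 members, ANXA7, was higher than in the control and 0 were lower, beside 10.1% of all genes. The controls are those used to choose ANXA7 and ANXA3, so this count too is a description of those genes. A second member, ANXA3, passed in limma without shCTRL replicate 2. The shLSD1 group had 0 members past the limma threshold against the control, 0 at an unadjusted p under 0.05 and 0 in the methods' t-test after adjustment, where 0.82% of all genes passed in limma. Between shUBE4B and shLSD1, 1 member was higher (ANXA7) and 0 were lower, beside 5.46% of all genes, and without any 1 of those 6 arrays the count was 0.

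The double knockdown differed from shUBE4B in 0 members by limma (1 at an unadjusted p under 0.05, ANXA7), beside 0.147% of all genes, and without shCTRL replicate 2 in 1, ANXA7. From shLSD1 it differed in 1 higher member (ANXA7) and 1 lower member (ANXA3), beside 2.79% of all genes. ANXA3 did not pass there without double knockdown replicate 1 or 2, any shUBE4B array, any shLSD1 array or shCTRL replicate 3. The interaction passed in 0 members by limma (1 at an unadjusted p under 0.05, ANXA7), beside 0% of all genes (2411 of 18417 at an unadjusted p under 0.05). These 3 contrasts share the double knockdown arrays with the choice of ANXA7 and ANXA3 or, for the interaction, all arrays. The share of members past the threshold was read beside the background and was not tested against it.

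**Figure D2:**
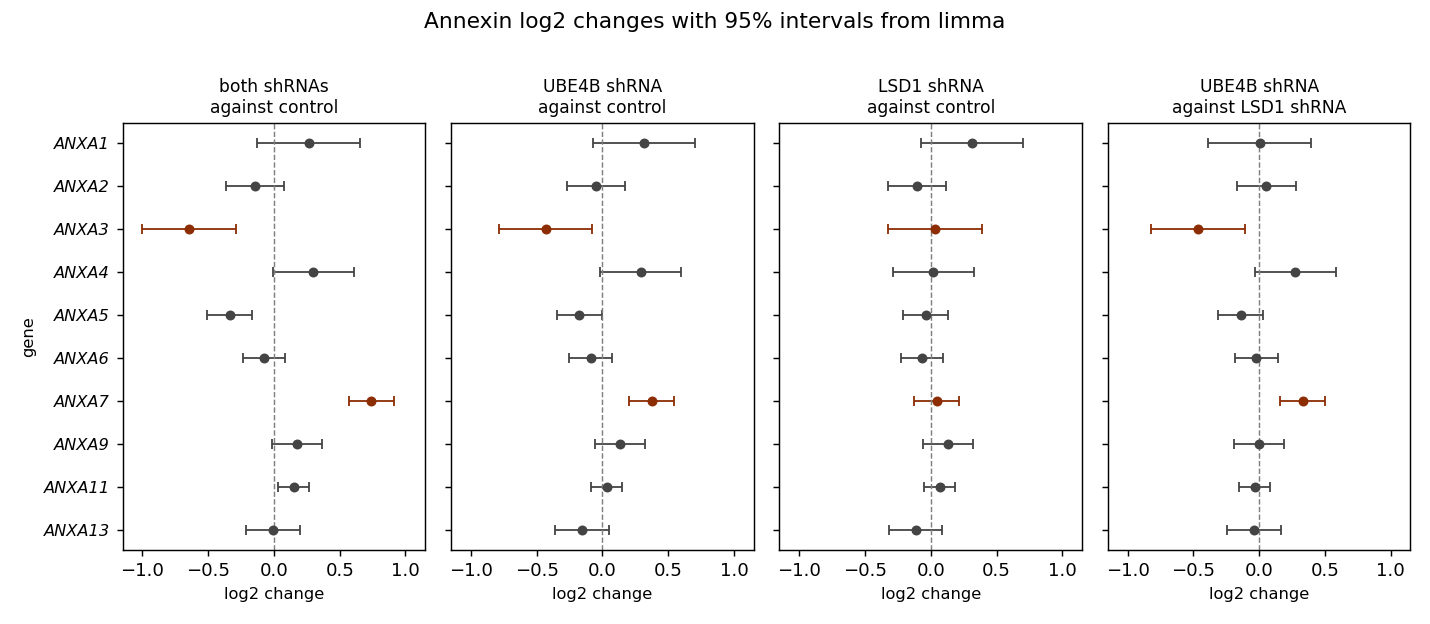
Log2 differences of the 10 annexins (horizontal axis, points, with 95% intervals from limma as bars) in 4 contrasts, with ANXA7 and ANXA3 in brown. ANXA7 lies at 0.74, 0.38, 0.05 and 0.33 and ANXA3 at -0.64, -0.43, 0.03 and -0.46 from left to right.

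Genes next to ANXA7 and ANXA3 were read to see whether the differences extended along the chromosome. The nearest measured genes before and after ANXA7 on chromosome 10 are MRPS16, CFAP70, MSS51 and PPP3CB. Their log2 differences in the double knockdown were -0.01, 0.01, -0.11 and -0.19, against 0.74 for ANXA7, in the contrast used to choose it. These neighbours all averaged higher in shUBE4B than in shLSD1, as did ANXA7. The means of shUBE4B and shLSD1 were 9.08 and 8.84 for MRPS16, 6.19 and 6.05 for CFAP70 and 6.51 and 6.33 for MSS51. Only the MSS51 arrays overlapped between those groups. The part of such a shift in the ANXA7 difference was not tested. PPP3CB, a catalytic subunit of the phosphatase calcineurin, was 0.36 higher in shUBE4B than in shLSD1 (limma adjusted p = 0.0227, up to 0.0985 without any 1 shUBE4B array or shLSD1 replicate 2 or 3), but its double knockdown arrays did not lie above the control. Around ANXA3 on chromosome 4, MRPL1, FRAS1, BMP2K and PAQR3 differed by 0.08, -0.09, -0.08 and -0.24 in the double knockdown, and none passed the threshold in limma (lowest adjusted p = 0.0938, for PAQR3).

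**Figure D3:**
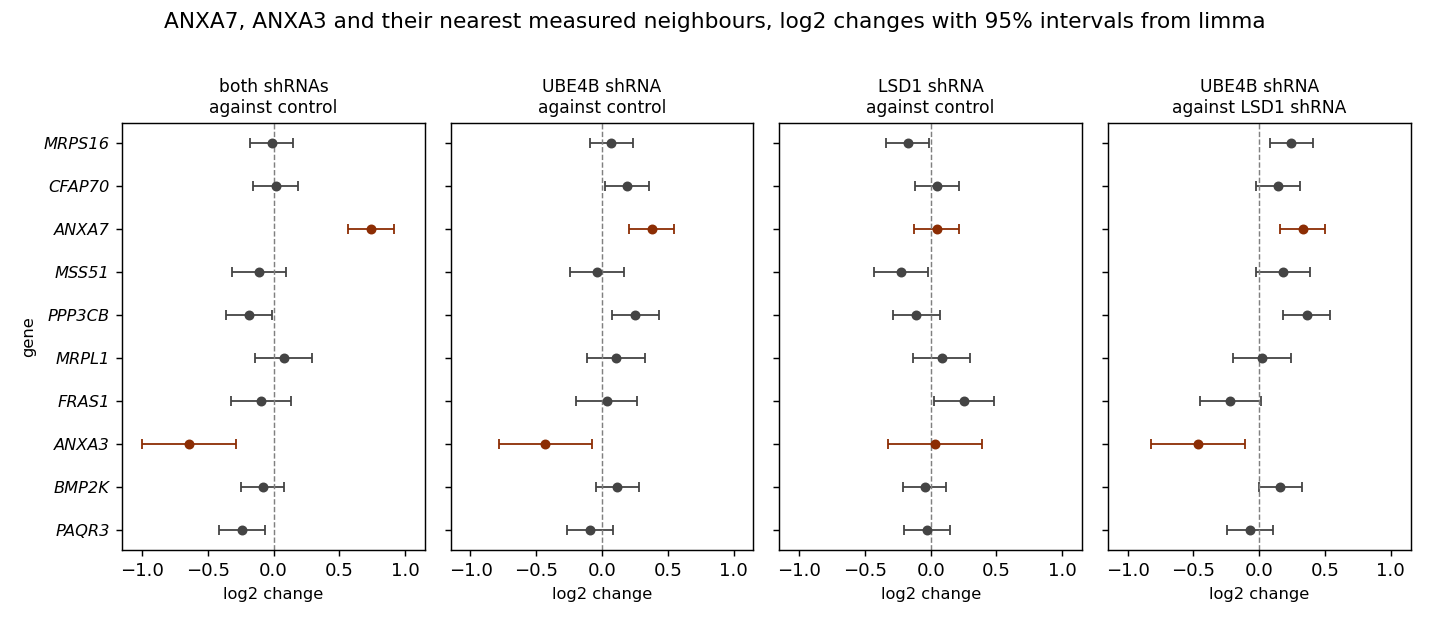
Log2 differences of ANXA7, ANXA3 (brown) and their 4 nearest measured neighbours each, in chromosomal order, with 95% intervals from limma. In the double knockdown the neighbours lie between -0.24 and 0.08. Between shUBE4B and shLSD1 the neighbours of ANXA7 lie on the same side as ANXA7.

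Over the 12 arrays, the genes whose log2 signal followed ANXA7 most closely were DENR (r = 0.95), ATP23 (0.95), RBM18 (0.94), C11orf24 (0.93) and HIPK1 (0.93). DENR, a factor of translation reinitiation, averaged 9.42, 9.22, 9.00 and 8.90, and ATP23, a mitochondrial protease, averaged 9.10, 8.47, 8.26 and 8.13 in the double knockdown, shUBE4B, shLSD1 and shCTRL. Those closest to ANXA3 were CTDSPL2 (r = 0.94), NUP58 (0.93), C4orf46 (0.93), MCM3 (0.92) and WDR82 (0.92). MCM3, a subunit of the replicative helicase, averaged 11.03, 11.06, 11.22 and 11.23, and NUP58, a nucleoporin, averaged 9.45, 9.58, 9.76 and 9.76 in that order of groups. Each r describes 12 points in 4 groups that share treatment, so it reflects group means as well as arrays, and the genes were picked as the highest of 18417.

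Among S100 proteins listed as annexin partners, 3 of 7 rose in the double knockdown against the control and 0 fell, beside the 7.56% of all genes that passed there in either direction. S100A10, the ANXA2 partner, had log2 signals of 11.19, 11.32 and 11.54 in the double knockdown and 10.65, 10.81 and 11.02 in shCTRL, with no overlap and a log2 difference of 0.52 (SE 0.11, limma adjusted p = 0.00899). S100A11, which binds ANXA1, was at 9.13, 9.13 and 9.18 in the double knockdown, 9.05, 9.07 and 9.22 in shUBE4B, 9.11, 8.98 and 9.15 in shLSD1 and 8.72, 8.82 and 8.85 in shCTRL. Every knockdown array of S100A11 thus lay above every control array. It rose by 0.35 in the double knockdown and 0.31 in shUBE4B (limma adjusted p = 0.00775 and 0.0134), while the 0.28 of shLSD1 did not pass (adjusted p = 0.0829). The shUBE4B call was lost without shUBE4B replicate 3 (limma adjusted p = 0.0633). The calls of S100A10 and S100A11 in the double knockdown held with each of the 12 arrays left out. Of all 23 alternatives, the S100A10 call held in 21 and the S100A11 call in 22. S100A4, another S100 protein that binds ANXA2, rose by 0.37 in the double knockdown (limma adjusted p = 0.0347). Its signals were 7.02, 7.08 and 6.69 there and 6.57, 6.51 and 6.61 in shCTRL, and the call was lost without double knockdown replicate 1 or 2, shLSD1 replicate 2 or any 1 control (limma adjusted p up to 0.137). The median difference of the 7 genes was 0.05 in the double knockdown.

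Of the penta-EF-hand calcium sensors, 0 of 7 measured rose and 1 fell in the double knockdown against the control, beside 7.56% of all genes. It was SRI, or sorcin, a binding partner of ANXA7, at 10.25, 10.06 and 10.34 in the double knockdown and 10.46, 10.43 and 10.53 in shCTRL (log2 difference -0.26, SE 0.07, limma adjusted p = 0.0467). That call held only without double knockdown replicate 3 or shCTRL replicate 2 among the 12 fits with 1 array left out (adjusted p up to 0.168). Copines, calcium-dependent lipid binders of another family, had 0 of 8 past the threshold in all 7 contrasts, beside 0% to 10.1% of all genes. In the double knockdown against the control, 3 copines had an unadjusted limma p under 0.05, beside 3818 of 18417 genes.

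Among genes of membrane repair, MYOF set shLSD1 apart. MYOF, which encodes the ferlin myoferlin of membrane fusion and repair, had log2 signals of 6.13, 6.45 and 6.47 in the double knockdown, 6.39, 6.46 and 6.37 in shUBE4B, 7.00, 6.97 and 7.26 in shLSD1 and 6.46, 6.50 and 6.68 in shCTRL. All shLSD1 arrays stood above all others. Outside shLSD1 the MYOF means of 6.35 to 6.55 lay near the 95th percentile of the olfactory receptor genes (6.28). MYOF differed by -0.67 between shUBE4B and shLSD1 and by -0.73 between the double knockdown and shLSD1 (limma adjusted p = 0.00282 and 0.0025), and both calls held with each array left out. It was 0.53 higher in shLSD1 than in the control (adjusted p = 0.0334), a call lost without any 1 shUBE4B or shLSD1 array or shCTRL replicate 1 or 2 (up to 0.137). CHMP4B, the filament subunit of ESCRT-III, was lower in shUBE4B than in the control by a log2 difference of -0.41 (limma adjusted p = 0.00373) and than in shLSD1 by -0.40 (limma adjusted p = 0.00572), also with each array left out. EHD2, an ATPase of caveolae, differed by -0.26 between the double knockdown and shLSD1 (limma adjusted p = 0.0438), and that call was lost without any 1 array of the 3 knockdown groups (up to 0.166). Over the 20 measured genes of this list, 0 passed in the double knockdown against the control, 0 rose and 1 fell in shUBE4B, and 1 rose and 0 fell in shLSD1, beside 7.56%, 10.1% and 0.82% of all genes.

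Genes that set phosphatidylserine exposure, the lipid annexins bind, gave 1 call of 15 measured against the control, in shUBE4B, where 10.1% of all genes passed. TMEM30A, the subunit that P4-ATPase flippases need to leave the endoplasmic reticulum, had signals of 9.36, 9.38 and 9.64 in the double knockdown, 9.79, 9.86 and 9.88 in shUBE4B, 9.40, 9.48 and 9.40 in shLSD1 and 9.49, 9.27 and 9.70 in shCTRL. The shUBE4B arrays were the highest. TMEM30A rose by 0.36 in shUBE4B against the control (limma adjusted p = 0.0394) and was 0.42 higher than in shLSD1 (adjusted p = 0.0279). Both calls were lost without any 1 shUBE4B or shLSD1 array, and the first also without shCTRL replicate 1 or 2 (limma adjusted p up to 0.126).

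Plasminogen activation, to which ANXA2 and S100A10 contribute, had 6 genes measured, with 0 higher and 1 lower in shUBE4B against the control and 0 past the threshold in the double knockdown, beside 10.1% and 7.56% of all genes. PLAUR, the urokinase receptor, fell by 0.26 in shUBE4B (log2 difference -0.26, limma adjusted p = 0.0256) and differed by -0.28 between shUBE4B and shLSD1 (adjusted p = 0.0247). Both calls were lost without shUBE4B replicate 1 or 2, the first also without shCTRL replicate 2 or 3 and the second without shLSD1 replicate 1 or 3 (limma adjusted p up to 0.113). SERPINE2, a secreted protease inhibitor, differed by -0.41 between shUBE4B and shLSD1 (limma adjusted p = 0.0463), which held only without shUBE4B replicate 2, shCTRL replicate 2 or shCTRL replicate 3 among those 12 fits. Of 3 formyl peptide receptors, through which ANXA1 acts on leukocytes, 1 fell in shUBE4B against the control, beside 10.1% of all genes. It was FPR1, at 4.75, 4.52 and 5.03 in shUBE4B and 5.12, 5.18 and 5.20 in shCTRL (log2 difference -0.40, limma adjusted p = 0.0261). That call was lost without shUBE4B replicate 1 or 2 or shCTRL replicate 2 or 3. These FPR1 signals lie around the median of the olfactory receptor genes, and expression in these cells was not shown.

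**Figure D4:**
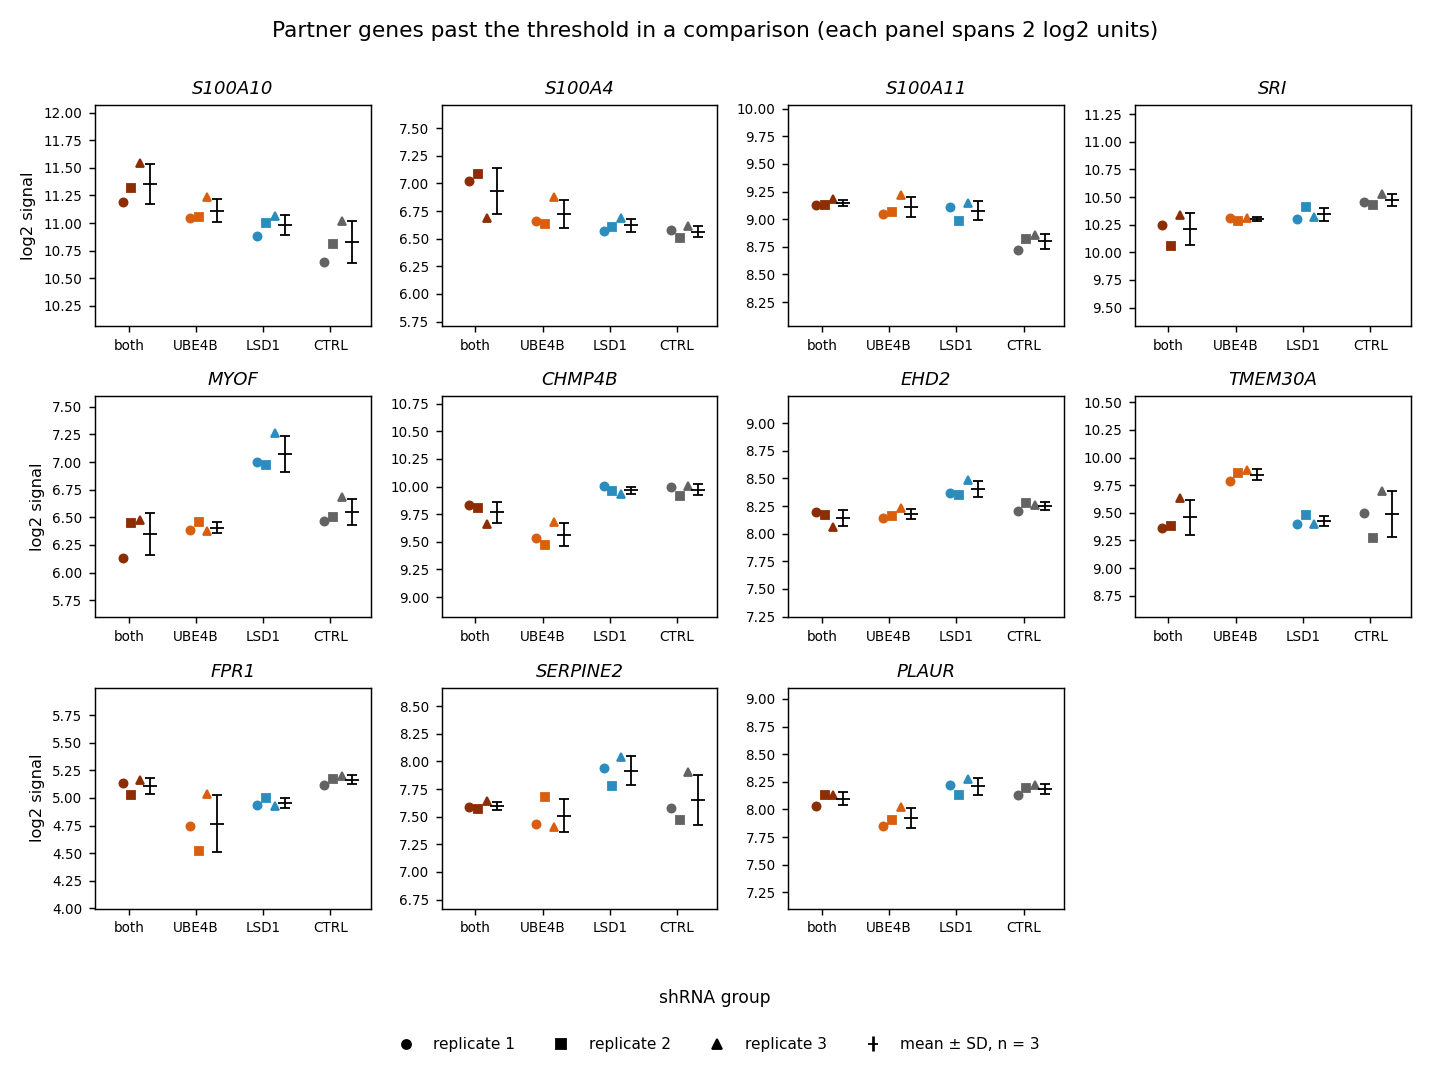
Log2 signal of 11 partner genes on each array (vertical axis, 2 log2 units in every panel) by shRNA group (both, UBE4B, LSD1, CTRL), with replicates as circles, squares and triangles and mean ± SD beside them. S100A10 and S100A11 have their highest means with both shRNAs, though the top S100A11 array is one with UBE4B shRNA, MYOF is highest with LSD1 shRNA and TMEM30A with UBE4B shRNA.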

How the data were processed

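Total RNA of 12 samples in 4 groups was hybridized to Affymetrix Human Gene 1.0 ST arrays. The authors made the deposited log2 signals with RMA in Partek (background correction, quantile normalization and a summary per transcript cluster, annotated on hg19), and no version is given in the sources used here. Of 33297 clusters, 21214 were named, and 1754 with several symbols were left out. Symbols were updated with RefSeq names. Groups were taken from the sample labels. A model with 1 mean per group was fitted with lmFit and eBayes (no trend) of limma 3.58.1 in R 4.3.3, which left 8 residual and 5.13 prior degrees of freedom. A gene passed the threshold, or is said to have risen or fallen, when its p, adjusted by Benjamini-Hochberg across 18417 genes, was under 0.05. Differences are on the log2 scale, first-named minus second-named group, and the interaction is double minus both singles plus control.

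The members, partner lists and tests were chosen with earlier results of these data known. All 10 members were named, with up to 4 genes per list past the threshold, the 2 nearest measured genes on each side of ANXA7 and ANXA3 and the 5 genes most correlated with each. PDCD6, PDCD6IP, CHMP3, CHMP4A, VTA1, PLSCR3 and CPNE1 were not analysed here, and some other list genes are not reported. The procedure was tested on simulated data. Alternatives were each of the 12 arrays left out, a replicate block, array weights, a fit to the compared arrays alone, a robust eBayes with trend, removal of the 40% dimmest genes, averaged clusters of a gene, quantile normalization applied again, arrays centred on their median, all transcript clusters, and the methods' t-test with and without adjustment. Those for partner genes were added after the data were seen. The number of arrays limits the precision. Figures used Python 3.11.15, NumPy 2.4.6 and matplotlib 3.10.9.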

Additional observations from a re-analysis of the deposited data

Results flagged for a closer look

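FPR1 was the 1 gene among those named whose arrays ran in opposite senses with UBE4B shRNA: all shUBE4B arrays lay below all shCTRL arrays (log2 difference -0.40), and all double knockdown arrays lay above all shLSD1 arrays (0.16). The difference between these effects was 0.55 (SE 0.14) and did not pass in limma (adjusted p = 0.196). FPR1 signals were near the median of the olfactory receptor genes.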

How the results depend on the processing

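The counts of annexins past the threshold moved with single arrays and with the test. With each array left out in turn they ranged between 1 and 3 for the double knockdown against the control, 1 and 2 for shUBE4B against the control, 0 and 1 for shUBE4B against shLSD1, 0 and 1 for the double knockdown against shUBE4B, and 1 and 3 for the double knockdown against shLSD1. They were 0 for shLSD1 against the control and for the interaction in limma under every alternative run. The cause of these shifts was not tested.

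Between shUBE4B and shLSD1, the log2 difference of ANXA7 ran between 0.25 and 0.37 with each array left out, and at 0.33 it did not pass over all transcript clusters or in the methods' t-test after Benjamini-Hochberg. That of ANXA3 passed at -0.46 in limma on the arrays compared only, with a replicate block, with array weights and in the unadjusted methods' t-test. The count of members was therefore 0 over all transcript clusters and in the adjusted t-test, 2 in limma on the arrays compared, with the replicate block and with array weights, and 5 in the unadjusted t-test. For shUBE4B against the control it was 2, ANXA7 and ANXA3, with the replicate block and with array weights and 0 in the adjusted t-test. For the double knockdown it was 1 in limma on the arrays compared and 0 in the adjusted t-test against the control. Against shLSD1 it was 1 after further quantile normalization, with median-centred arrays and over all transcript clusters, 4 in the unadjusted and 0 in the adjusted t-test, and against shUBE4B it was 1 with trend and robust settings, with array weights and without the 40% dimmest genes, and 2 in the unadjusted t-test.

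The labels do not say what a replicate number shares, and the numbers were not taken as pairing because not every same-numbered pair deviated together: deviations of same-numbered arrays correlated at -0.08 to 0.33 (median 0.13, 18 pairs) and those of other pairs at -0.34 to 0.25 (median -0.03). As a hint from the data, 8 of 12 arrays correlated best with their own number. With the replicate block, 1821 genes were called in the double knockdown against the control (1393 without it), 2309 in shUBE4B (1854), 237 in shLSD1 (151) and 1275 between shUBE4B and shLSD1 (1006).

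Of 1520 other values of members, 1485 were labelled unchanged, 15 lost the threshold and 20 gained it, and 0 called ones changed sign. Unchanged meant keeping the same side of the threshold, except in the double knockdown against the control. There it meant a shift smaller than the pooled SD within groups, and lost calls are seen only in the counts above. Of 409 for partner genes, 294 kept the call and 115 lost it. ANXA9 and ANXA13 gave no value without the 40% dimmest genes. Over all genes, leaving out arrays gave 862 to 1549 calls in the double knockdown against the control, 909 to 2328 in shUBE4B and 15 to 198 in shLSD1, 396 to 1662 between shUBE4B and shLSD1, and 8 to 135 and 159 to 808 for the double knockdown against shUBE4B (27 with all arrays) and shLSD1 (513). The other limma settings gave 420 to 1942, 693 to 2372, 2 to 363, 746 to 2551, 23 to 125 and 351 to 896 in that order of comparisons, and 0 to 5 for the interaction. The methods' t-test gave 2731, 3499, 1805, 4315, 2632 and 2839 unadjusted, and 48, 46, 1, 663, 1 and 9 adjusted. Signals near the median of olfactory receptor genes (ANXA13, FPR1) carry the least information. Those of ANXA9, of MYOF outside shLSD1 and of S100A4 in shCTRL lie near the 95th percentile of the same genes.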
